A study of Equus caballus with 12 samples.

Results

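A total of 117 horse genes were read almost only in the heart. They were taken from 31217 annotated genes by a rule on read counts: a median of at least 200 normalised counts in the heart, and a heart median at least 100 times the lung median plus 1 and at least 100 times the liver median plus 1. A normalised count is the read count of a gene divided by the size factor of its library, the median over 8968 widely read genes of the ratio to their geometric mean. Of the 6063 genes that reached 200 normalised counts in the heart, the 117 were 1.93%. The same rule turned towards the other tissues gave 53 genes for the lung and 259 for the liver.

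The material came from 4 healthy cold-blooded stallions of 1 to 2 years, slaughtered without any treatment named in the sources. Each horse gave 1 library of the left ventricle (heart), 1 of the caudal lobe of the right lung and 1 of the right lobe of the liver, so that each tissue had 4 libraries and replicate numbers stand for horses. Pieces of tissue hold many cell types, and a low count may reflect few cells of a type or little RNA per cell, which cannot be told apart in such samples. The count files name genes by Ensembl identifier alone and pair no symbol with them, so the label heart was not checked against known marker genes, and only the few identifiers on which a result turns are printed.

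The ventricle wall is built mainly from cardiomyocytes, striated muscle cells that contract through sarcomeres, arrays of myosin and actin filaments under the control of calcium. Genes of the sarcomere, of calcium release and of the creatine kinase energy buffer are classical examples of transcripts abundant in heart muscle and scarce in organs without striated muscle. The lung and the liver contain smooth muscle in airways and vessels, which shares part of the cytoskeleton but not the sarcomere. This is background; which of the 117 identifiers belong to such genes was not examined here.

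Reads counted in genes ranged from 6146728 to 23474239 in the heart libraries, from 8395937 to 22247307 in the lung and from 4345694 to 18142916 in the liver. After division by the size factors, 1 count was worth between 0.302 normalised counts in lung replicate 3 and 3.66 in heart replicate 3. Among the lung and liver libraries the largest value was 3.63, in liver replicate 4. These values set the coarseness of every low value below. Heart replicate 2 stood apart from the other heart libraries. The 259 genes restricted to the liver had there a median level of 3.01% of their liver level, compared with 0.0470%, 0.243% and 0.104% in heart replicates 1, 3 and 4. The share of reads and the spread between hearts are given with and without this library.

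The heart-restricted genes spanned 3 orders of magnitude in the heart. Their heart medians ran from 209.6 to 244054 normalised counts, with a median over genes of 1943. A heart median of at least 10000 was found for 27 genes, one between 1000 and 10000 for 48, and one below 1000 for 42. Counts are not divided by gene length, so these levels rank genes by reads and not by transcripts. Together the 117 genes took 8.48%, 7.15%, 8.97% and 9.78% of all gene counts in heart replicates 1 to 4, with a mean of 8.60% ± 1.10 (SD, n = 4), or 9.08% without heart replicate 2. With the 10 most counted genes of each tissue set aside from the members and from the totals, their share of the remaining heart counts was 15.9% ± 2.20. The 10 most counted members held 67.9% ± 1.58 of the counts of the whole set in the heart (SD, n = 4), so a few genes carried most of these reads.

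The most counted member was ENSECAG00000022125, with 195278, 231440, 277759 and 256667 normalised counts in heart replicates 1 to 4. The lung replicates, in the same order of horses, stood at 88.8, 21.7, 29.0 and 28.9 normalised counts, and the liver replicates at 77.5, 54.3, 46.2 and 76.3. The 4 heart libraries lay close together and far above all others, and lung replicate 1 was well above the other lung libraries. ENSECAG00000019844 came next, with 222092, 146608, 190497 and 234553 normalised counts in the same 4 hearts. Its lung values were 73.1, 15.4, 20.8 and 31.3, and its liver values 76.1, 43.8, 61.2 and 90.8. Both genes were thus read in every lung and liver library, at a mean of 0.0175% and 0.0177% of the heart mean in the lung and 0.0265% and 0.0343% in the liver.

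**Figure D1:**
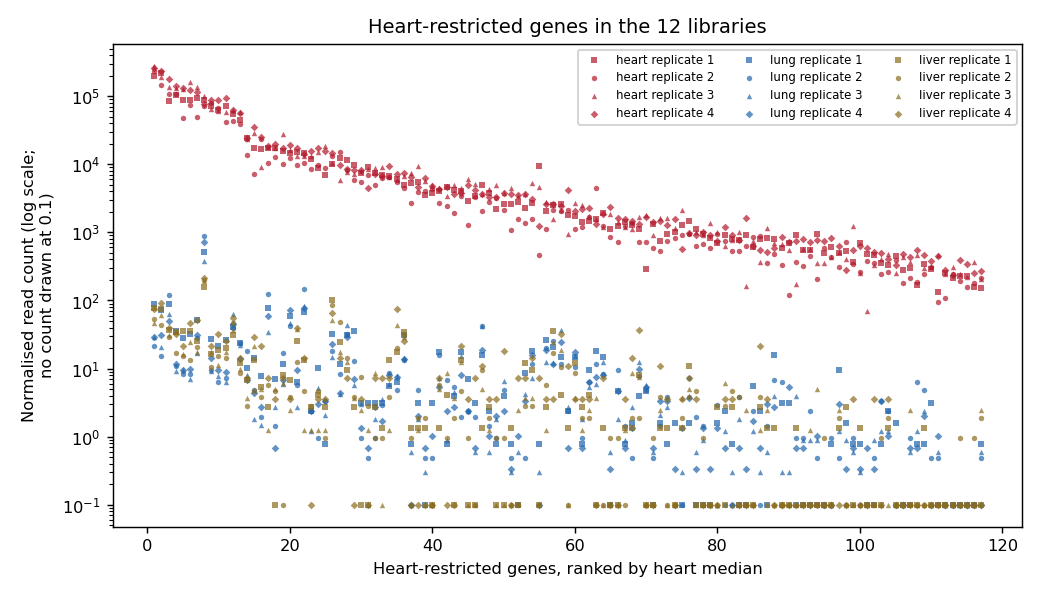
Normalised read counts of the 117 heart-restricted genes in all 12 libraries, on a log scale, with genes ranked by heart median on the horizontal axis, colours for tissues and symbols for horses. Heart points fall from 244054 (median of the first gene) to 209.6 (median of the last), and the lung and liver points below them reach 887.6 at most. Libraries without a count are drawn at 0.1.

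Expression in the heart exceeded that in the other tissues for each member in every library, as the rule required of the medians. The lowest heart library divided by the highest lung or liver library plus 1 had a median over genes of 141, with a lowest value of 15.9 and a highest of 2823, and was at least 100 for 70 of the 117 genes. In edgeR's quasi-likelihood fit over 15436 genes, all 117 were called higher in the heart than in the lung and than in the liver, where 20.7% and 26.4% of all genes tested were called in those directions, and 24.5% and 22% in the opposite directions. The members were chosen on these contrasts, so their calls describe the rule and are no test. The median fitted log2 fold change over the members was -10.28 for lung over heart and 10.70 for heart over liver.

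The threshold cut through a continuous series of ratios. Of the genes just inside, ENSECAG00000019696 had medians of 324.5 normalised counts in the heart, 2.23 in the lung and 0 in the liver, and ENSECAG00000016485 of 645.1, 5.34 and 0, with smaller heart ratios of 100.5 and 101.7. Just outside were ENSECAG00000004388, with medians of 2878, 0.1701 and 29.3, and ENSECAG00000038417, with 2250, 22.9 and 1.10, at ratios of 95.1 and 94.2. A ratio of 50 in place of 100 gave 143 genes and a ratio of 200 gave 90. At the level threshold, ENSECAG00000021919 was just inside with a heart median of 209.6, and ENSECAG00000005327 just outside with 199.96.

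The heart-restricted genes had a wider spread between the 4 hearts than other genes read at this level. For each gene, the highest heart library was divided by the lowest. The median of this ratio was 2.01 over the 117 members (quartiles 1.56 and 2.59), and 1.56 over the 5946 other genes with a heart median of at least 200 (quartiles 1.35 and 1.93). The ratio was at least 2 for 59 members (50.4%) and for 1329 other genes (22.4%). One library per horse allows no test within the heart, and these are descriptions over genes that share the same libraries. Without heart replicate 2 the medians were 1.49 and 1.42, a smaller gap between members and other genes than with it. The ratio was then at least 2 for 27 members (23.1%) and 804 other genes (13.5%). Within their own tissues, the median ratio was 2.73 over the 53 lung-restricted genes and 1.85 over the 258 liver-restricted genes read in every liver library. The spread of other genes in the lung and the liver was not taken beside these values.

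**Figure D2:**
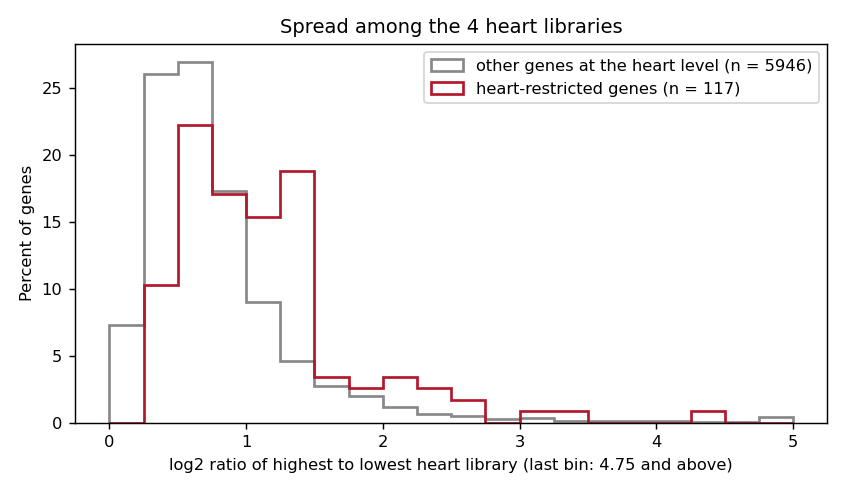
Distribution of the log2 ratio of the highest to the lowest heart library, as percent of genes, for the 117 heart-restricted genes and the 5946 other genes with a heart median of at least 200 normalised counts. The median ratio is 2.01 for the members and 1.56 for the other genes, and the members' curve lies to the right.

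Heart replicate 2 was the lowest heart library for 76 of the 117 members (65.0%), compared with 2021 of the 5946 other genes (34.0%). Over the members its level had a median of 0.680 times the median of the other 3 heart libraries, whereas for the other genes it was 0.937 times. Heart replicate 4 was the highest for 56 members and heart replicate 3 for 40, while heart replicates 1 and 2 were the highest for 16 and 5. Among the 5946 other genes, heart replicates 1 to 4 were the highest for 1190, 1292, 2085 and 1379. Heart replicate 3 was thus the highest for similar shares of members (34.2%) and of other genes (35.1%). These shares differed for heart replicate 4 (47.9% and 23.2%) and for heart replicate 2 (4.27% and 21.7%). Among members, heart replicate 2 also came lowest most often under the other scalings tried. It did so for 74 members under TMM-scaled library sizes (63.2%, beside 35.8% of the other genes). Under library totals alone it did so for 69 (59.0%, beside 26.6%), while heart replicate 3 was most often lowest among the other genes (34.7%). The library with the lowest level of heart-restricted genes was thus the one with the highest level of liver-restricted genes, and the part of the latter in the former was not tested.

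**Figure D3:**
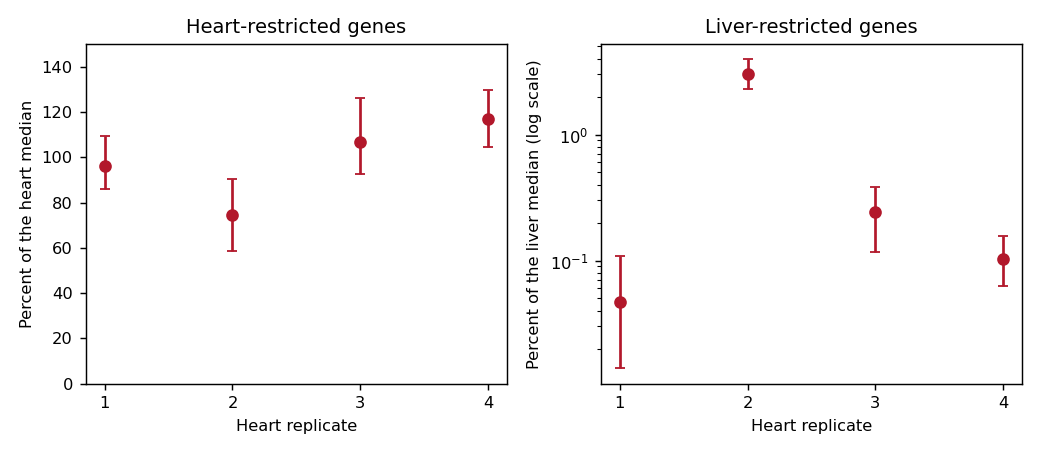
Level of restricted genes in heart replicates 1 to 4. On the left, the 117 heart-restricted genes as percent of their heart median, and on the right, on a log scale, the 259 liver-restricted genes as percent of their liver median; points are medians over genes and bars join the quartiles. Heart replicate 2 has the lowest median on the left, 74.6%, and the highest on the right, 3.01%.

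Some members spread far more widely than most, and some departed from this common order. The widest spread was that of ENSECAG00000018912, with 9554, 473, 4619 and 1235 normalised counts in heart replicates 1 to 4, a 20.2-fold range, which was 7.73-fold without heart replicate 2. All 4 hearts differed for this gene, with heart replicate 1 highest and heart replicate 2 lowest. The lung libraries held 2 counts of it in all and the liver libraries 2. ENSECAG00000013546 followed, with 905, 633, 161 and 1653 normalised counts, a 10.3-fold range. Here heart replicate 3 was the low library, with 44 reads against 424 to 1729 in the others, and it is also the heart library with the fewest reads. ENSECAG00000019710, named in addition after its values were seen, had the same low library, with 473.6, 377.8, 69.5 and 582.3 normalised counts. ENSECAG00000015657, chosen in the same way, was the opposite of most members: it reached 4459 normalised counts in heart replicate 2 and 1550, 1592 and 1323 in heart replicates 1, 3 and 4.

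At the other end, ENSECAG00000020632 was the steadiest member between hearts, with 3830, 4388, 4901 and 4797 normalised counts in heart replicates 1 to 4, a 1.28-fold range. The liver held none of its reads, and lung replicates 1 to 4 held 4, 1, 0 and 3. ENSECAG00000007900 spanned 1.29-fold in the heart, from 2055 to 2653 normalised counts, yet was read in every lung library, between 11.6 and 36.9 normalised counts, and in every liver library, between 4.08 and 32.7. Both steady genes were read in the lung, and the second was read in the liver as well.

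Traces of the heart-restricted genes were read in all lung and liver libraries. Of the 117 members, between 91 and 101 had a count in a given lung library and between 67 and 76 in a given liver library, and 45 had a count in all 8. The lung mean amounted to a median of 0.0940% of the heart mean over members (quartiles 0.0283% and 0.282%, highest 1.13%), and the liver mean to 0.0547% (quartiles 0.0222% and 0.170%, highest 1.14%). For the 20 most counted members these percentages were low and close together in the liver, with quartiles of 0.0244% and 0.0314%. In the lung they were wider, with quartiles of 0.0176% and 0.0597%. Across members, Spearman's rho between the heart mean and the lung mean was 0.706, and with the liver mean 0.767 (117 genes, which share libraries and are not replicates). The rule sets an upper limit on lung and liver medians that grows with the heart median, so these values are partly fixed by the choice of members.

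**Figure D4:**
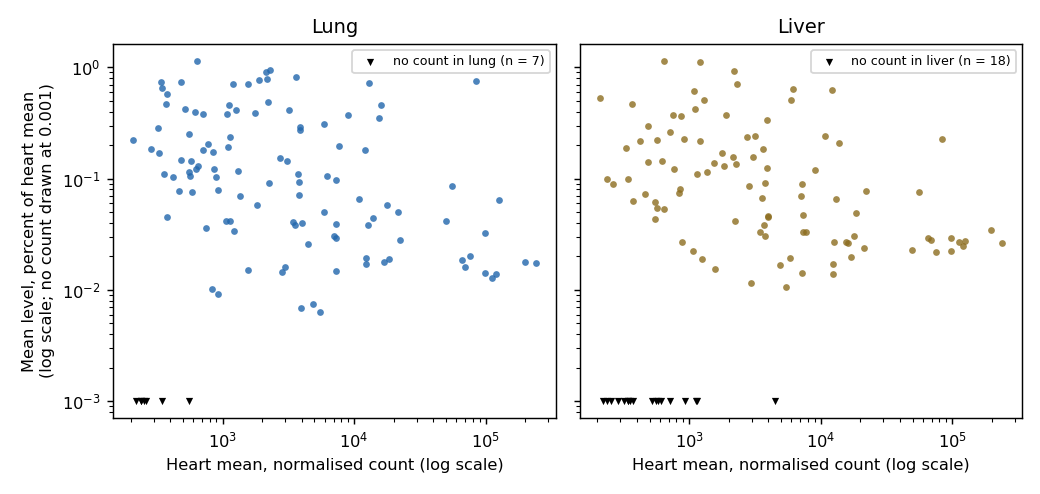
Mean level of each heart-restricted gene in the lung (left) and the liver (right) as percent of its heart mean, against the heart mean, both on log scales. Lung points lie between 0.00633% and 1.13% of the heart level and liver points between 0.0105% and 1.14%, and the 7 genes without a lung count and the 18 without a liver count are drawn as triangles at 0.001%.

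No count was found in any lung library for 7 members and in any liver library for 18, and 4 members had none in either tissue. Since a gene without reads may still be present, up to 3 reads per gene were allowed for in the summed libraries of such a tissue. Of the 4 genes, ENSECAG00000004498 had the highest heart median and reached 282.0, 183.7, 435.5 and 474.3 normalised counts in heart replicates 1 to 4. With pooled counts it was at least 1080-fold higher in the heart than in the lung and at least 322-fold higher than in the liver. ENSECAG00000020800 reached 256.0, 109.0, 241.6 and 279.2 normalised counts in heart replicates 1 to 4, at least 740-fold higher than in the lung and at least 221-fold higher than in the liver. Both were named for having no count elsewhere. The bounds towards the liver are lower because 1 read is worth more normalised counts in the liver libraries.

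A single member dominated the reads of the set in the lung. ENSECAG00000013832, chosen after its values were seen, stood at 512.2, 887.6, 385.5 and 733.8 normalised counts in lung replicates 1 to 4, and at 157.6, 197.2, 192.3 and 214.4 in liver replicates 1 to 4. In the heart it reached 88290, 71547, 100548 and 76170 normalised counts. Every lung library was above every liver library, with a log2 fold change of 1.60 ± 0.29 (SE) for lung over liver (edgeR's quasi-likelihood test, adjusted p = 0.000287). The gene was chosen for the highest lung median of the members, so this difference is a description and no test. This gene made up between 28.4% and 46.4% of the members' counts in the lung libraries, between 15.2% and 22.2% in the liver and between 3.602% and 5.301% in the heart.

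The members' share of all gene counts was 0.0273%, 0.0284%, 0.0181% and 0.0247% in lung replicates 1 to 4 and 0.00547%, 0.00514%, 0.00483% and 0.00879% in liver replicates 1 to 4. Every lung library was above every liver library on this scale. In normalised counts, which allow for the few genes that take much of the liver reads, the sums over members were 1800, 1952, 1218 and 1582 in the lung and 1037, 889, 938 and 1388 in the liver. Without ENSECAG00000013832 these sums were 1288, 1064, 833 and 848 in the lung and 879, 692, 746 and 1173 in the liver, so that the lung was above the liver within horses 1 to 3 and below it within horse 4. Liver replicate 4 has the fewest reads of all libraries.

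Lung against liver was the comparison that the rule for members did not use directly. The rule did cap the medians of both tissues by the same limit. The question was whether genes restricted to the heart differ between the 2 tissues in which they are scarce. Of the 117 members, 17 (14.5%) were called for the lung and 8 (6.84%) for the liver. A call needed an adjusted p under 0.05 (edgeR's quasi-likelihood test, Benjamini-Hochberg) and a fold change of 2 or more. Among all 15436 genes tested, 31.1% were called for the lung and 19.4% for the liver. The other 92 members had no call. The median log2 fold change, lung over liver, was 0.10 over the members and 0.26 over all genes tested. The members passed the filter on low counts by their heart libraries, whatever their reads in the tissues compared. Most had few reads or none there, but 25 had a lung median above 10 normalised counts and 23 a liver median above 10. The lower share of calls is therefore no result about the members. Without lung replicate 1, members higher in the liver numbered 18 instead of 8 (15.4%, beside 19.3% of all genes in that fit). The split also depended on the scaling: with library totals alone, which shifted the median over all genes tested to 1.81 (log2), 48 members (41.0%, beside 69.9% of all genes) were called for the lung and 0 for the liver in edgeR (7.46% of all genes), with 1 at an unadjusted p under 0.05 on the liver side. DESeq2, run with its own size factors, called 16 members for the lung and 14 for the liver, beside 30.8% and 20.1% of all genes.

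ENSECAG00000010057 showed the largest change among members called higher in the lung, with 7, 5, 4 and 5 reads in lung replicates 1 to 4 and none in any liver library. This amounts to at least 2.09-fold more in the lung, and its fitted log2 fold change of 4.59 ± 1.30 (SE) depends on the prior count (edgeR, adjusted p = 0.00988). With so few reads, this gene entered the fit through its heart libraries, so the adjusted p is given as a description only. ENSECAG00000021854 rested on more reads: it stood at 78.6, 124, 34.7 and 58.9 normalised counts in the lung and at 2.72, 5.72, 1.25 and 7.27 in the liver. The tissues did not overlap, and the log2 fold change was 4.09 ± 0.51 (SE) with an adjusted p of 1.16e-05 in edgeR's quasi-likelihood test. In the heart both genes were far higher, with medians of 697.7 and 17604 normalised counts.

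In the opposite direction, the largest change among called members with at least 10 reads in the liver was that of ENSECAG00000023971, which had 2.36, 0, 0.302 and 0.680 normalised counts in lung replicates 1 to 4 and 2.72, 3.81, 1.25 and 21.8 in liver replicates 1 to 4. The tissues overlapped, and liver replicate 4 was far above the others with 6 reads. The log2 fold change was -2.86 ± 0.97 (SE) with an adjusted p of 0.0198 (edgeR), which became 0.0581 without liver replicate 4 and 0.0523 without lung replicate 3. This gene too entered the fit through its heart libraries, so these adjusted p values are descriptions only. Without lung replicate 1 the log2 fold change was -3.54. ENSECAG00000000099 differed more firmly, with 6.28, 4.83, 7.86 and 7.48 normalised counts in the lung and 17.7, 20.01, 43.7 and 76.3 in the liver. Every liver library was above every lung library here, with a log2 fold change of -2.55 ± 0.40 (SE) and an adjusted p of 8.51e-05 (edgeR).

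Large fitted changes without a call were also seen. ENSECAG00000004666, named after its values were seen, had 6, 10, 19 and 16 reads in lung replicates 1 to 4 and none in the liver, at least 5.07-fold more in the lung, with an adjusted p of 0.0537 in edgeR's quasi-likelihood test. In the same fit the heart libraries enter the estimate of spread for every member, called or not. For this gene they ranged 6.17-fold, from 293 normalised counts in heart replicate 1 to 1808 in heart replicate 3. The part of this spread in the missing call was not tested.

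**Figure D5:**
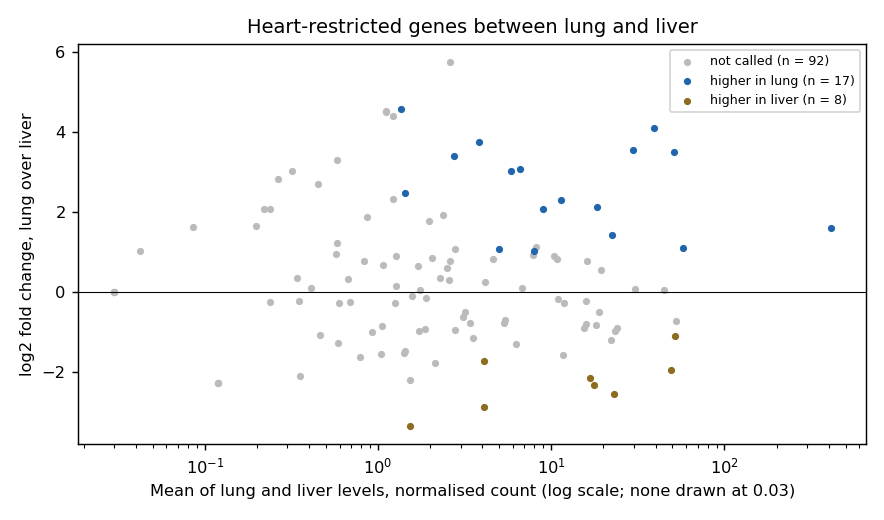
Fitted log2 fold change of lung over liver for the 117 heart-restricted genes against the mean of their lung and liver levels in normalised counts, on a log scale. Colours mark the 17 genes called higher in the lung, the 8 called higher in the liver and the 92 not called; called and not called genes overlap over most of the range, and genes without any count in either tissue are drawn at 0.03.

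Lung replicate 1 carried more of the most counted members than the other lung libraries. For the 20 most counted members its level had a median of 2.77 times the median of the other 3 lung libraries, and it was the highest lung library for 12 of the 20. In raw reads it was the highest for 9 of the 20, although it has the fewest reads of the lung libraries. For the 78 members with at least 10 counts over the lung libraries the median was 1.38 times. Liver replicate 4 showed the corresponding excess among the liver libraries, with a median of 1.45 times the other 3 over the 20 most counted members. The part of depth or of RNA from other tissues in these traces was not tested.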

How the data were processed

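Polyadenylated RNA of 12 samples was turned into TruSeq version 2 libraries and sequenced on an Illumina HiSeq, with paired reads of 150 bases. The labels and the study's methods name different RNA extraction kits. Each deposited file held unnormalised read counts by Ensembl gene, for which the authors aligned reads to EquCab3.0 with TopHat2 and counted them with HTSeq. The sources used here do not state how strand was handled in counting. Overlapping genes may therefore lose reads or take reads of one another. Genes with near-identical copies may lose reads as well. The 5 summary rows of each file were left out. PCR copies were not marked, so bounds for a count of 0 cover counting error only.

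Groups came from the tissue label. The members, the lists and the tests were chosen with earlier results of these data known, and gene lists that need symbols were not used because 0 of the 31217 identifiers matched a symbol in the reference table. Genome positions and sequences were not used here. Named identifiers were at most 2 in each direction: the most counted, the most and the least variable between hearts, those with the largest fitted change between lung and liver (at least 10 counts in the higher tissue) and those next to the thresholds; others are marked as chosen after their values were seen. Counts were fitted in R 4.3.3 with edgeR 4.0.16 (default low-count filter by tissue, TMM factors, robust quasi-likelihood, all 12 libraries in 1 model of tissue) and Benjamini-Hochberg adjustment over 15436 genes. DESeq2 1.42.0, other scalings, no filter, the horse as a block and each library left out were alternatives. The code was tested on simulated counts. One number is 1 horse in the labels, which pairs the libraries. Deviations from tissue means correlated with a mean r of 0.157 over the 12 pairs of libraries of the same horse and of -0.0521 over the 36 pairs of different horses. Within a tissue the deviations of a gene cancel over the horses, so the second mean largely follows from the first.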

Additional observations from a re-analysis of the deposited data

Results flagged for a closer look

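In a group of 4 libraries, chance sets the highest or lowest apart at the limit used here in about 1 of 20 groups. That figure does not hold for sparse reads. Of the members with any difference between libraries, 3.42% passed the limit in the heart, 13.6% in the lung and 30.3% in the liver. Among the liver libraries, replicate 4 was set apart as high for 8.08% of them and replicate 2 for 9.09%. Among the liver libraries, replicate 4 was set apart by a member share of 0.00879% of gene counts, the others lying between 0.00483% and 0.00547%. Lung replicate 1 was set apart for ENSECAG00000022125, at 88.8 normalised counts against 21.7 to 29.0. Liver replicate 4 was set apart for ENSECAG00000023971, at 21.8 normalised counts against 1.25 to 3.81, and for ENSECAG00000018912, at 7.27 normalised counts, or 2 reads, with none in the others. ENSECAG00000013546 had 0.340 normalised counts (1 read) in lung replicate 4 and 2.50 (2 reads) in liver replicate 3, with none in the other libraries of these tissues. Heart replicate 2 was set apart by the level of liver-restricted genes, at 3.01% of their liver level against 0.0470% to 0.243%. A gene read in 1 library of 4 is always set apart, so the values for ENSECAG00000018912 and ENSECAG00000013546 follow from sparse reads.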

How the results depend on the processing

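The number of heart-restricted genes lay between 80 and 143 under the 19 alternatives, and between 111 and 122 when 1 library was left out. The lowest, 80, came from library totals alone, and all 80 were among the 117. The members' share of gene counts lay between 8.20% and 9.08% in the heart, 0.0234% and 0.0268% in the lung and 0.00515% and 0.00647% in the liver when 1 library of that tissue was left out. Without the 10 most counted genes of each tissue it was 15.9% in the heart and 0.00830% in the liver. With members at a ratio of 50 it was 0.0367% in the lung and 0.00969% in the liver, and at a ratio of 200 it was 0.0104% and 0.00351%. Without the member with the highest lung level, an alternative chosen after seeing the data, the lung share was 0.0152%. The median ratio of highest to lowest heart library was between 1.49 and 1.92 when 1 heart library was left out. Between lung and liver, edgeR with library totals alone gave 48 members higher in the lung and 0 in the liver (1 at an unadjusted p under 0.05); under them the median over all genes tested shifted from 0.26 to 1.81 (log2), so the direction for the set depends on the scaling. DESeq2 with its own size factors gave 14 members higher in the liver. Leaving out 1 library gave 14 to 19 lung calls and 6 to 18 liver calls among the members. With the horse as a replicate block, 15 members (12.8%) were called for the lung and 11 (9.40%) for the liver. Among all genes of that fit, 31.7% and 19.4% were called. Of the member calls, 14 and 8 were shared with the fit without the block. The paired fit changed no call of the 4 named genes. In the 68 fits of these 4 genes none changed direction and 4 lost the call. With library totals alone ENSECAG00000023971 had an adjusted p of 0.213 and ENSECAG00000000099 a log2 fold change just short of the threshold. All 117 members were higher in the heart in both comparisons with DESeq2 and with the replicate block, which follows from the rule. Depth limits the traces: in liver replicate 4, 1 read is 3.63 normalised counts, above the median liver level of the members, 1.63.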
